A study of Homo sapiens with 32 samples.

Results

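The transcripts of 9 glycolytic enzymes and of pyruvate dehydrogenase kinase 1 were followed in CBD-treated neuroblastoma cells: HK1, HK2, GPI, PFKP, ALDOA, ALDOC, PGK1, ENO2, LDHA and PDK1. These 10 genes were taken by name from an RNA-Seq table of 22610 gene entries, and all 10 passed the filter on low values that left 12621 genes for testing. The cells were SK-N-BE(2), an established human neuroblastoma line with amplified MYCN, grown as 1 line in 6-well dishes and left to attach overnight. Of the 32 samples, 16 received 20 µM cannabidiol (CBD, the non-intoxicating cannabinoid) dissolved in ethanol and 16 received vehicle (0.1% ethanol), for 3, 6, 12 or 24 h, so that each of the 8 groups held 4 samples. No sample was taken before treatment, and time after treatment and time in culture moved together, so these cannot be told apart. The treatments were prepared in quadruplicate, but no source used here says that the replicates came from separate passages or days, and the p-values then measure the spread between these samples, which may be technical.

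Glycolysis turns glucose into pyruvate in the cytosol. Hexokinases (HK1, HK2) trap glucose as its phosphate, glucose-6-phosphate isomerase (GPI) and phosphofructokinase (PFKP, with PFKL and PFKM) prepare it for cleavage, and the aldolases (ALDOA, ALDOC) split the sugar. Triosephosphate isomerase (TPI1), GAPDH, phosphoglycerate kinase 1 (PGK1), phosphoglycerate mutase (PGAM1), the enolases (ENO1, ENO2) and pyruvate kinase (PKM) then carry the fragments to pyruvate. The A subunit of lactate dehydrogenase (LDHA) favours its reduction to lactate, and the pyruvate dehydrogenase complex feeds it into the citric acid cycle. PDK1 phosphorylates that complex and shuts it down, so it stands at the branch point. Many of these genes are textbook targets of hypoxia-inducible factor (HIF), whose core binding sequence is ACGTG or GCGTG, and some are also targets of MYC proteins, which bind CACGTG.

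The 250 bases before the annotated start site are shown for PDK1 and HK2, which had the lowest log2 fold changes against vehicle of the 10 at 24 h, for PGK1, ALDOC and LDHA, and for LDHB, the partner of LDHA whose mean level at 24 h was 821 FPKM in both treatments. Capitals mark ACGTG or GCGTG on either strand (CACGT and CACGC are their complements); a CACGTG holds ACGTG on both strands, and it was counted as a match on each strand.
PDK1: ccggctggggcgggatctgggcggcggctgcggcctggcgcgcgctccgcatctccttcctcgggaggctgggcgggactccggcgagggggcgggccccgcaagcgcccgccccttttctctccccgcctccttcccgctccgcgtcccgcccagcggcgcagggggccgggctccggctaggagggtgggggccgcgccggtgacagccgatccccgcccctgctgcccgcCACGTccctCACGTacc
HK2: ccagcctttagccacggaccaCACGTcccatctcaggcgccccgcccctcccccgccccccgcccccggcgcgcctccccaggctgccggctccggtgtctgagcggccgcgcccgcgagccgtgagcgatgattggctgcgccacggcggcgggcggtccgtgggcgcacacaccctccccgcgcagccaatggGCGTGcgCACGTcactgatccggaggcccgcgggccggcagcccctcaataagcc
PGK1: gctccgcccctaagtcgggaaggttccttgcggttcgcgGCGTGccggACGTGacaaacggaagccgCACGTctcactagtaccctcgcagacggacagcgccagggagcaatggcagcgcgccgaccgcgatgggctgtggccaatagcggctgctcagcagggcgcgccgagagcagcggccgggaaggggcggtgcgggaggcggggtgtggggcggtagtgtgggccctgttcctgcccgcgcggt
ALDOC: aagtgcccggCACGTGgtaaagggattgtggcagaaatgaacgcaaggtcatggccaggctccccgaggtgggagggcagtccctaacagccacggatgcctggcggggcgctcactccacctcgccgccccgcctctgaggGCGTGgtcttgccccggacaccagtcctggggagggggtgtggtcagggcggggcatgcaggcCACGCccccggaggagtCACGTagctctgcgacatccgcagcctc
LDHA: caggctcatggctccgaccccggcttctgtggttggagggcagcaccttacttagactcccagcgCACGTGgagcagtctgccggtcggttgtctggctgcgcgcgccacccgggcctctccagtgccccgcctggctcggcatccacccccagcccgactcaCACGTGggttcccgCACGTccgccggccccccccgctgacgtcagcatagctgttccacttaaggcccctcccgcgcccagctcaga
LDHB: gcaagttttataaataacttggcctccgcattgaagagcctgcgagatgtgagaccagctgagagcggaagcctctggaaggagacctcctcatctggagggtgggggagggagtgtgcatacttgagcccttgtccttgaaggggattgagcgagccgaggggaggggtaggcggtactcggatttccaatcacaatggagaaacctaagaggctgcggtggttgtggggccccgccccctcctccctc
The sequences are from RefSeq (GRCh38.p14 promoter table) and were each found once in GRCh37, the build equal to the hg19 used for the reads, at chr2:173420568-173420817 on the plus strand for PDK1, chr2:75061004-75061253 on the plus strand for HK2, chrX:77359495-77359744 on the plus strand for PGK1, chr17:26903914-26904163 on the minus strand for ALDOC, chr11:18415860-18416109 on the plus strand for LDHA and chr12:21810777-21811026 on the minus strand for LDHB. All 10 genes had entries in that table (24 start sites), and for each gene the start site closest to the GENCODE canonical transcript was used. For HK1, GPI and PFKP it lay 217, 204 and 422 bases from the canonical start, and for the other genes of the 10 it was the same. The whole PFKP window and most of the HK1 window lie after the canonical start, so their matches are not read from sequence upstream of it. Of the 10 windows, 9 held ACGTG or GCGTG, against 43.2% of 35116 promoter windows of the same length. ACGTG was in 8 of them (18.5% of all windows), GCGTG in 4 (32.2%) and CACGTG in 2, ALDOC and LDHA (6.34%). LDHA and ALDOC held 5 matches each, PGK1 and HK2 held 3 each, and PDK1 held 2, which lie 17 and 8 bases before the start site. HK1, GPI, ALDOA and ENO2 held 1 match each, while PFKP, the remaining gene, and LDHB held none. Among the other glycolytic enzymes searched, TPI1, PGAM1 and PKM also held none, and GAPDH and ENO1 held 2 each. Each of these enzymes, with or without a match, was called lower with CBD at 24 h, unlike LDHB. The windows used for GAPDH and PGAM1 lay 747 and 1627 bases from the canonical start. Whether matches go with the CBD differences was not tested. Known targets of these factors are among the 10 genes, and a match is a run of letters, not evidence that a factor was bound.

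The levels are FPKM, the fragments assigned to a gene scaled to transcript length and library size, as the authors deposited them, so values of different genes are on a scale per length. FPKM do not carry read totals. Depth relative to the median sample, read from the steps of low values, ran from 0.794 to 1.20, with group medians of 1.00 to 1.05 in vehicle and 0.925 to 1.00 in CBD. All 13 neuroblastoma markers looked up averaged at least 1 FPKM (MYCN 1762 FPKM, PHOX2A 404 FPKM over the 32 samples). Their sum was 4903 to 4963 FPKM in vehicle and 5057 to 5263 FPKM in CBD at 24 h. In this sum the CBD samples lay wholly above vehicle at 3, 6, 12 and 24 h. The sum is weighted to MYCN, the most abundant of the 13, which averaged 1554 FPKM in vehicle and 2257 FPKM in CBD at 24 h. In the limma fit described below, 7 of the 13 were called lower at 24 h and 1, MYCN, higher. Of all genes tested, 21.3% were called lower and 20.8% higher at that time. The keratinocyte markers KRT5, KRT14 and TP63 averaged 0.00016, 0.019 and 0.0016 FPKM, and 7 of 8 keratinocyte and 8 of 8 endothelial and immune markers averaged under 1 FPKM. The summed keratinocyte list ranged from 4.24 to 5.28 FPKM over both treatments at 3 h and from 1.43 to 1.94 FPKM at 24 h. Among 10 mesenchymal markers 5 averaged at least 1 FPKM, among them FBLN1 (109 FPKM) and LUM (56.5 FPKM). The other 5 averaged under 1 FPKM, among them PRRX1 (0.0012 FPKM) and COL1A2 (0.0092 FPKM). The summed list was 169 to 178 FPKM in vehicle and 163 to 181 FPKM in CBD at 24 h. It was 194 to 203 FPKM in vehicle and 185 to 193 FPKM in CBD at 3 h. At 6 h these ranges were 189 to 197 and 178 to 181 FPKM, and at 12 h 181 to 190 and 173 to 177 FPKM. The CBD samples thus lay wholly below vehicle in this sum at 3, 6 and 12 h. All 32 samples entered 1 limma fit of log2(FPKM + 1), and a gene is called here at a Benjamini-Hochberg adjusted p under 0.01 over all 12621 genes. On this scale the fold change of low genes is understated.

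With CBD more of these transcripts were called lower at each later time. At 3 h limma called 0 of the 10, where 2.46% of all genes tested were called and 3 of the 10 had an unadjusted p under 0.05. At 6 h 3 were called, each lower with CBD (HK2, ALDOC and PDK1), against 10.2% of all genes called and 6.13% called lower. That count was 1 without vehicle replicate 3 of that time, and 0 by limma with 6 h fitted alone, where 6 had an unadjusted p under 0.05. At 12 h 5 were called lower (HK2, GPI, PGK1, LDHA and PDK1), against 20.1% of all genes called and 11.2% called lower. At 24 h 9 of 10 were called lower, with HK1 the exception, against 42.1% called and 21.3% called lower. The median log2 fold change of the 10 was 0.0082, -0.062, -0.14 and -0.38 at 3, 6, 12 and 24 h, beside medians over all genes tested of 0.0066, -0.0048, -0.0043 and -0.0032. In bulk RNA, fewer cells of a type and less RNA per cell cannot be told apart. When the model also held each sample's relative depth, the counts called lower were 2 at 6 h, 4 at 12 h and 9 at 24 h.

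**Figure D1:**
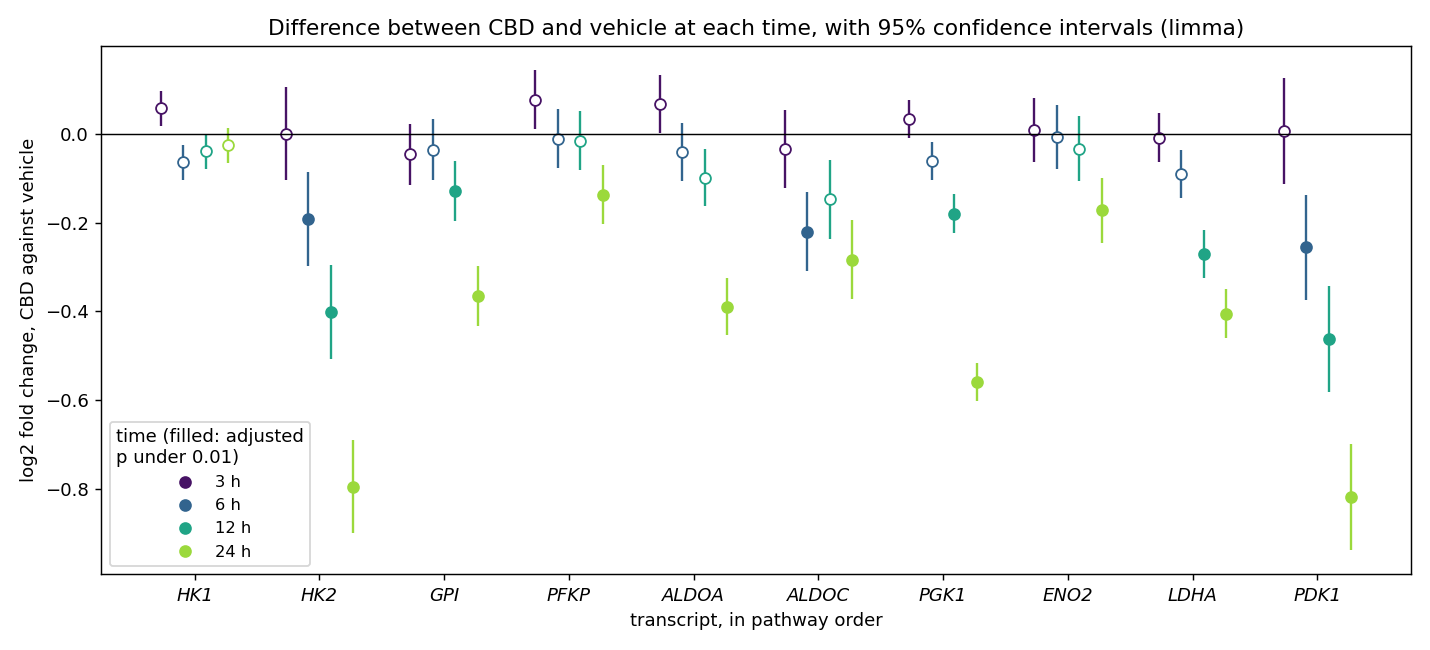
Log2 fold change of CBD against vehicle (y axis, log2 of FPKM + 1) for each of the 10 transcripts in pathway order (x axis) at 4 times, with 95% confidence intervals from limma. Filled points have an adjusted p under 0.01; at 24 h 9 of 10 are filled, and PDK1 (-0.82) and HK2 (-0.80) lie lowest.

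The samples were also compared without a test. At 24 h the 4 CBD samples lay wholly below the 4 vehicle samples for 8 of the 10 transcripts (25.9% of all genes tested), and HK1 and PFKP overlapped. At 12 h this held for 8 (16.9%) and at 6 h for 6 (11.1%). At 3 h it held for 0 (4.36%), and 2 transcripts, HK1 and PGK1, lay wholly above vehicle (5.52%), although neither was called.

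**Figure D2:**
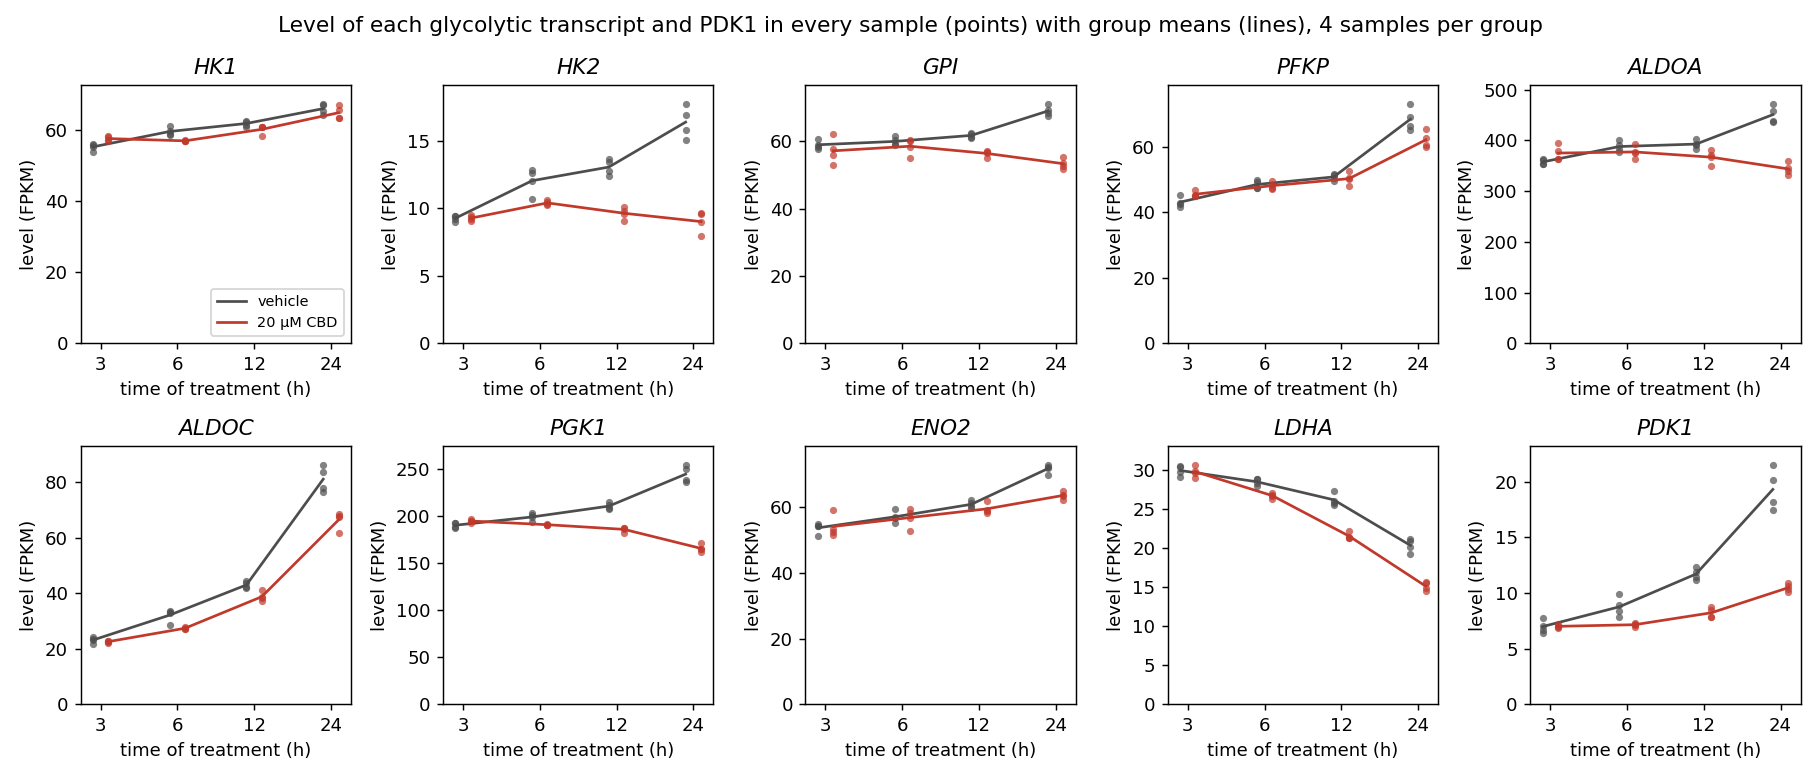
Level in FPKM (y axis, from 0) of each transcript in every sample (points) against hours of treatment (x axis, evenly spaced), with lines through the means of 4 samples. Vehicle is grey and CBD red; in vehicle the level climbs from 3 to 24 h for 9 transcripts and declines for LDHA, and the red line ends below the grey one in each panel.

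The hexokinases parted. HK2 is the inducible isozyme found in many tumours, and HK1 the constitutive one. At 3 h HK2 was at 9.44, 9.24, 8.96 and 9.42 FPKM in vehicle and 9.34, 9.21, 9.50 and 9.03 FPKM in CBD, and these overlapped. At 6 h vehicle gave 10.7, 12.8, 12.6 and 12.1 FPKM and CBD 10.3, 10.5, 10.6 and 10.2 FPKM. At 12 h the values were 12.7, 12.4, 13.4 and 13.6 FPKM in vehicle and 9.09, 9.77, 10.1 and 9.60 FPKM in CBD. At 24 h they were 17.7, 15.8, 16.9 and 15.1 FPKM in vehicle and 9.63, 7.92, 9.56 and 8.97 FPKM in CBD. Vehicle samples thus climbed while CBD samples stayed near the level of 3 h, and the groups did not overlap from 6 h on. The log2 fold changes were -0.19, -0.40 and -0.80 at 6, 12 and 24 h (standard error 0.051, adjusted p = 0.00958, 9.35e-07 and 1.02e-12). On the FPKM scale the CBD mean differed from the vehicle mean by -44.9% at 24 h. The call at 6 h was close to the threshold and was lost when any of 7 of the 8 samples of that time was left out (adjusted p up to 0.0413, without vehicle replicate 3). It was also lost without the filter on low values (0.0167), under median-ratio scaling (0.0118) and under quantile normalization (0.0139). The same held for variances without a trend (0.0101), relative depth as a term (0.0182) and 6 h fitted alone (0.0567). HK1 averaged 65.9 ± 1.37 FPKM in vehicle and 64.8 ± 1.85 FPKM in CBD at 24 h (SD, n = 4), a log2 difference of -0.025 with a 95% confidence interval of -0.065 to 0.014, whose sign turned under quantile normalization (0.0091). At 3 h HK1 lay wholly above vehicle, with a log2 fold change of 0.059 (adjusted p = 0.0612), and at 6 h wholly below it (-0.064, adjusted p = 0.0201). At 12 h HK1 also lay wholly below vehicle (-0.039, adjusted p = 0.137 by limma), but barely. Its highest CBD sample was then at 60.9103 FPKM and its lowest vehicle sample at 60.911 FPKM. HK2 lies at chr2:75061254-75120486 and HK1 at chr10:71078603-71161638 (canonical transcripts, GRCh37, both with 18 exons). Of the 50-base words of the HK2 transcript, 15.5% also occur at 1 other place in the genome, so some of its 50-base reads could have come from there; HK1 shared 0 of 3553 words.

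GPI and PFKP carry the next steps. GPI was at 71.0, 68.3, 69.3 and 67.4 FPKM in vehicle and 52.7, 55.4, 53.5 and 51.7 FPKM in CBD at 24 h. These groups were well apart, and the log2 fold change was -0.37 (standard error 0.033, adjusted p = 8.06e-10). At 12 h it was -0.13 (adjusted p = 0.00421), a call lost when any of 3 of the 8 samples was left out (adjusted p up to 0.0179, without CBD replicate 1, and 0.0142 and 0.0129 without vehicle replicates 1 and 3), with relative depth as a term (0.0179) and under quantile normalization (0.0200). PFKP, the platelet-type phosphofructokinase, was at 73.0, 65.2, 69.1 and 66.5 FPKM in vehicle and 59.9, 60.5, 65.5 and 62.6 FPKM in CBD at 24 h. The highest CBD sample reached into the vehicle range, and the log2 fold change of -0.14 (standard error 0.033, adjusted p = 9.02e-04) lost its call under quantile normalization (adjusted p = 0.0112) and when the 24 h samples were fitted by themselves (0.0274). Its sister isozymes went apart at 24 h. PFKL, the liver type, was lower at -0.22 (adjusted p = 6.61e-05) and PFKM, the muscle type, was higher at 0.13 (adjusted p = 2.79e-05), with all 4 CBD samples (69.8 to 74.4 FPKM) above all 4 vehicle samples (66.1 to 67.0 FPKM).

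Both aldolases were lower with CBD at 24 h, and ALDOC was also called at 6 h. ALDOA, the ubiquitous isozyme, was the most abundant of the 10, at 471, 437, 457 and 437 FPKM in vehicle and 332, 345, 359 and 339 FPKM in CBD at 24 h. The groups were wholly apart, the CBD mean was the lowest of the 8 group means of ALDOA, and the log2 fold change was -0.39 (standard error 0.031, adjusted p = 8.47e-11). ALDOC, the brain isozyme, was at 86.2, 76.5, 83.6 and 78.0 FPKM in vehicle and 61.8, 68.4, 67.6 and 67.9 FPKM in CBD at 24 h. At 6 h it was at 28.7, 33.4, 33.7 and 32.7 FPKM in vehicle and 27.9, 27.0, 27.3 and 27.2 FPKM in CBD. It was thus lower with CBD at both times without overlap, with log2 fold changes of -0.22 at 6 h (adjusted p = 5.93e-04) and -0.28 at 24 h (adjusted p = 4.21e-06). At 12 h its difference of -0.15 fell just short of the threshold (adjusted p = 0.0108), and with 6 h fitted alone the call at 6 h was lost (adjusted p = 0.0313). ALDOA lies at chr16:30077081-30081735 and ALDOC at chr17:26900138-26903913 (GRCh37).

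PGK1 had the smallest p among the 10 at 24 h. This enzyme makes the first ATP of the pathway and is encoded on the X chromosome (chrX:77359745-77384792, GRCh37, 11 exons). At 24 h it was at 249.9, 236, 254.9 and 239 FPKM in vehicle and 162, 165, 165 and 171 FPKM in CBD. The gap between the lowest vehicle sample and the highest CBD sample was wider than the spread inside either group. The log2 fold change was -0.56 (standard error 0.021, adjusted p = 1.94e-17), after -0.18 at 12 h (adjusted p = 2.45e-07) and -0.061 at 6 h, which was not called (adjusted p = 0.0438). At 3 h it was 0.033 (adjusted p = 0.359), and its sign turned under quantile normalization (-0.029). The enzymes of the 2 steps before it, which are not among the 10, were TPI1 at -0.63 (standard error 0.025) and GAPDH at -0.19 (standard error 0.028). Both were called lower at 24 h (adjusted p = 5.56e-17 and 2.32e-06), though 42.6% and 25.6% of their 50-base words also occur elsewhere in the genome. For PGK1 that share was 8.34%.

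ENO2, the neuron-type enolase, changed late and little. It was at 72.5, 72.1, 73.0 and 69.9 FPKM in vehicle and 65.0, 63.8, 63.6 and 62.4 FPKM in CBD at 24 h. No CBD sample reached the vehicle range, and the log2 fold change was -0.17 (standard error 0.035, adjusted p = 2.03e-04). At 3, 6 and 12 h it was 0.0093, -0.0063 and -0.033, none of them called. The ubiquitous isozyme ENO1, at 1109.7 ± 25.7 FPKM in vehicle and 829 ± 16.003 FPKM in CBD, had the larger estimate, -0.42 (standard error 0.025). PGAM1, the step before, had -0.72 (standard error 0.031), but 90.7% of its words occur elsewhere in the genome and its level is therefore uncertain. PKM, the last step, had -0.48 (standard error 0.020). All 3 were called lower at 24 h (adjusted p = 2.05e-13, 2.06e-16 and 2.25e-16 for ENO1, PGAM1 and PKM).

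LDHA went down with time in both treatments, and further with CBD. At 6 h it was at 28.3, 27.9, 28.8 and 28.8 FPKM in vehicle and 26.7, 27.0, 26.3 and 26.7 FPKM in CBD. At 12 h vehicle gave 27.3, 25.5, 26.0 and 25.7 FPKM and CBD 21.3, 21.3, 21.3 and 22.1 FPKM. At 24 h vehicle gave 19.2, 20.1, 20.9 and 21.1 FPKM and CBD 14.8, 14.4, 15.5 and 15.6 FPKM. The CBD samples lay wholly below vehicle at each of these 3 times. The log2 fold changes were -0.090 at 6 h, which was not called (adjusted p = 0.0180), -0.27 at 12 h (adjusted p = 1.20e-08) and -0.41 at 24 h (standard error 0.027, adjusted p = 1.33e-12). LDHB, the heart-type subunit, was at 821 ± 26.9 FPKM in vehicle and 821 ± 24.4 FPKM in CBD at 24 h, a log2 difference of 0.00038 (standard error 0.028). LDHA supplied 2.41 ± 0.040% of the summed LDHA and LDHB level in vehicle and 1.80 ± 0.021% in CBD. LDHA lies at chr11:18416110-18429972 (GRCh37, 8 exons), and 16.7% of its 50-base words occur at 7 other places, so its level may be less certain than that of LDHB (2.87%).

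PDK1 and HK2 had the lowest estimates of the 10 at 24 h, within a standard error of each other, and no test compared them. At 3 h PDK1 was at 6.44, 7.04, 6.66 and 7.78 FPKM in vehicle and 6.90, 6.84, 7.24 and 7.04 FPKM in CBD. At 6 h vehicle gave 7.84, 8.40, 9.89 and 8.92 FPKM and CBD 6.95, 7.11, 7.21 and 7.33 FPKM. At 12 h vehicle gave 11.1, 11.5, 11.9 and 12.4 FPKM and CBD 7.86, 8.70, 8.52 and 7.83 FPKM. At 24 h vehicle gave 21.5, 18.2, 20.2 and 17.4 FPKM and CBD 10.9, 10.1, 10.6 and 10.3 FPKM. The treatments overlapped at 3 h and lay apart at each later time, and the spread between CBD samples was narrow. The log2 fold changes were -0.26, -0.46 and -0.82 at 6, 12 and 24 h (standard error 0.058, adjusted p = 0.00246, 7.18e-07 and 6.29e-12). On the FPKM scale the CBD mean differed from the vehicle mean by -45.8% at 24 h, although PDK1 rose from 3 h to 24 h in both treatments. The call at 6 h was lost without vehicle replicate 3, the highest sample (adjusted p = 0.0175), and with 6 h fitted alone (0.0371). Without vehicle replicate 3, 1 of the 10 transcripts, ALDOC, was called at 6 h.

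The sister kinases of PDK1 had smaller estimates. PDK2 was at 19.7 ± 0.565 FPKM in vehicle and 18.9 ± 0.856 FPKM in CBD at 24 h, a log2 difference of -0.054 (standard error 0.033, adjusted p = 0.169). PDK3 differed by -0.13 (adjusted p = 0.00653), and PDK4 was at most 0.0039 FPKM in any sample. Among 13 tested genes of the pyruvate dehydrogenase complex and its regulators, a list that leaves out PDK1, 3 were higher and 1 lower at 24 h, with a median of 0.023. Of all genes tested, 20.8% were called higher and 21.3% lower at that time. PDP2, a phosphatase that switches the complex back on, had the largest difference among those called, 0.35 (standard error 0.027, adjusted p = 4.52e-11), followed by PDHB, a subunit of the complex, at 0.15 (adjusted p = 2.14e-04). PDK1 lies at chr2:173420818-173473397 (GRCh37, 11 exons) and its annotated transcript is 14072 bases long, of whose 50-base words 1.36% occur elsewhere.

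**Figure D3:**
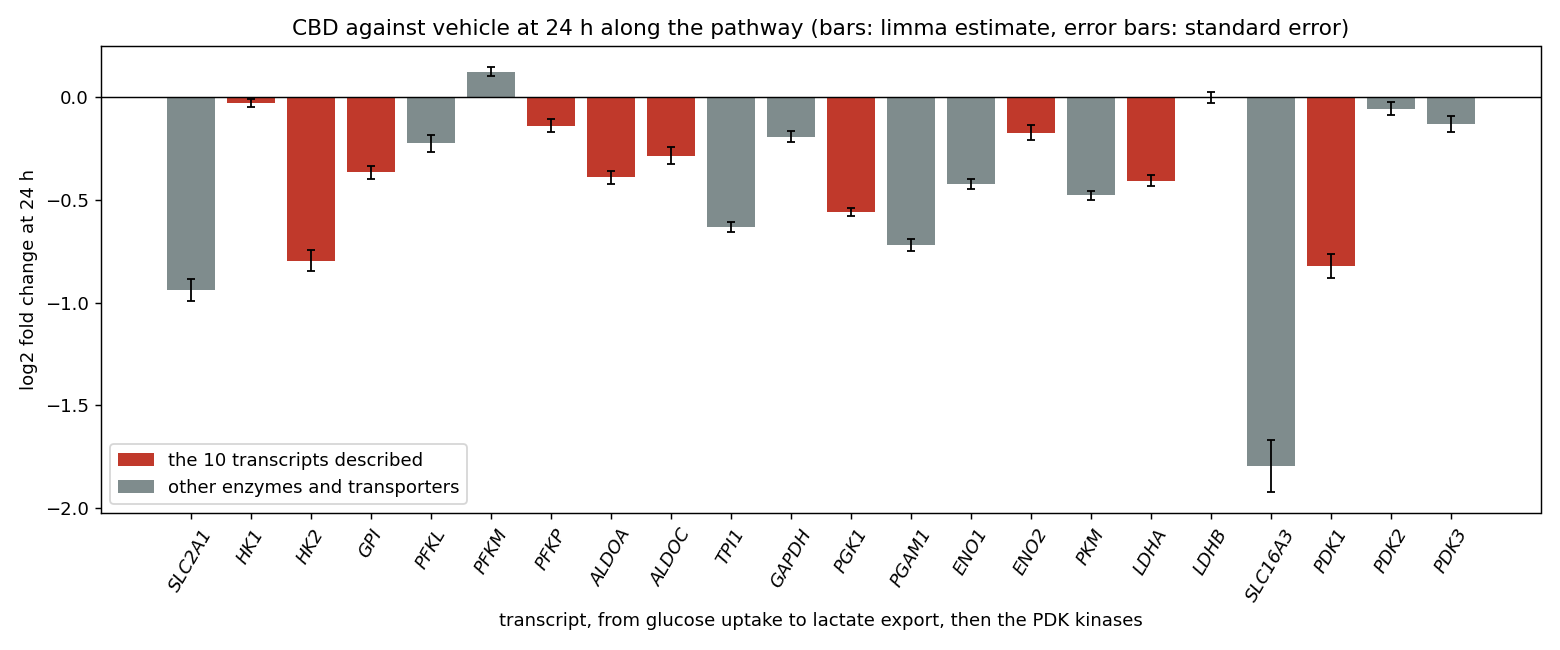
Log2 fold change at 24 h (y axis, bars from 0, with standard errors from limma) for 22 transcripts from glucose uptake to lactate export and the PDK kinases (x axis). The 10 transcripts described are red and the others grey; SLC16A3 (-1.80) reaches lowest, PFKM (0.13) lies above 0 and LDHB (0.00038) at 0.

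Levels also differed between times. In vehicle, 9 of the 10 were higher at 24 h than at 3 h and LDHA was lower, all called, where 57.8% of all genes were called, 26.6% higher and 31.1% lower. ALDOC rose 3.51-fold in mean FPKM, from 23.1 ± 0.962 to 81.1 ± 4.60, and PDK1 rose 2.77-fold, from 6.98 ± 0.588 to 19.3 ± 1.87. HK2 rose 1.77-fold and PFKP 1.59-fold, while ENO2, PGK1, ALDOA, HK1 and GPI rose 1.34, 1.29, 1.26, 1.19 and 1.17-fold. LDHA changed to 0.679 of its level at 3 h (log2 fold change -0.54, adjusted p = 2.96e-15).

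With CBD, 5 of the 10 were higher at 24 h than at 3 h and 3 were lower, where 67.8% of all genes were called, 32.1% of all genes higher and 35.7% lower. ALDOC rose 2.95-fold, PDK1 1.496-fold, PFKP 1.36-fold, ENO2 1.18-fold and HK1 1.13-fold. LDHA was lower at 0.508 of its level at 3 h, PGK1 at 0.851 and ALDOA at 0.917. The 2 last falls were not called under quantile normalization (log2 fold changes -0.054 and -0.028, adjusted p = 0.0548 and 0.458). HK2 (log2 fold change -0.039, adjusted p = 0.503) and GPI (-0.096, adjusted p = 0.0113, and 0.040 under quantile normalization) were not called. Under other limma fits GPI was called lower: with median-ratio scaling (-0.15, adjusted p = 4.01e-04), a replicate block (0.00614) or relative depth as a term (0.00848). The same held without CBD replicate 4 at 3 h (4.84e-04) or CBD replicate 2 at 24 h (0.00544). These 2 time courses share their samples with the comparisons of CBD and vehicle, so they are not independent of them.

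The change of the CBD effect was tested directly. From 3 h to 24 h the difference between CBD and vehicle became lower for 9 of the 10, against 27.2% of all genes called and 14.3% called lower. The change was largest for PDK1, -0.83 on the log2 scale (standard error 0.082), and HK2, -0.80 (0.073), and followed in PGK1, -0.59, ALDOA, -0.46, and LDHA, -0.40. It was smaller for GPI, -0.32, ALDOC, -0.25, PFKP, -0.21, and ENO2, -0.18. The call of ENO2 (adjusted p = 0.00529) was lost without vehicle replicate 4 or CBD replicate 1 at 3 h, without vehicle replicate 1 or 3 or CBD replicate 4 at 24 h, and under quantile normalization (adjusted p 0.0103 to 0.0262). The call of PFKP was lost under quantile normalization (adjusted p = 0.0121). HK1 was not called (-0.084, adjusted p = 0.0160). From 12 h to 24 h 5 of the 10 became lower (HK2, GPI, ALDOA, PGK1 and PDK1), against 8.15% called and 3.45% called lower. Over all genes that last comparison called 592 higher and 436 lower, and 410 higher and 640 lower under median-ratio scaling, where 6 of the 10 were called, each lower.

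Isozyme shares were compared at each time as percentages of summed FPKM. PDK1 made up 43.4 ± 2.67% of the 4 PDK transcripts in vehicle and 30.6 ± 1.04% in CBD at 24 h (SD, n = 4). HK2 made up 19.9 ± 0.916% of the 2 hexokinases in vehicle and 12.2 ± 0.885% in CBD, and PFKP 43.8 ± 1.11% and 40.6 ± 0.877% of the 3 phosphofructokinases. The shares of 2 members went the other way at 24 h. ENO2 made up 6.09 ± 0.155% of the enolases in vehicle and 7.14 ± 0.175% in CBD, and ALDOC 15.2 ± 0.276% and 16.2 ± 0.496% of the aldolases, since ENO1 and ALDOA had the larger fold changes. ENO1 with ENO2 and ALDOA with ALDOC are compared here per length. Each of the 6 shares was wholly apart between treatments at 24 h, 4 were at 12 h (HK2, ENO2, LDHA and PDK1), 2 at 6 h (LDHA and PDK1) and 0 at 3 h. These 12 of 24 had p = 0.0286 in exact two-sided permutation tests of 4 against 4 samples, the smallest p this design allows. Adjusted over the 24 tests this is 0.0571 so 0 of 24 passed 0.05, and 12 had an unadjusted p under 0.05.

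**Figure D4:**
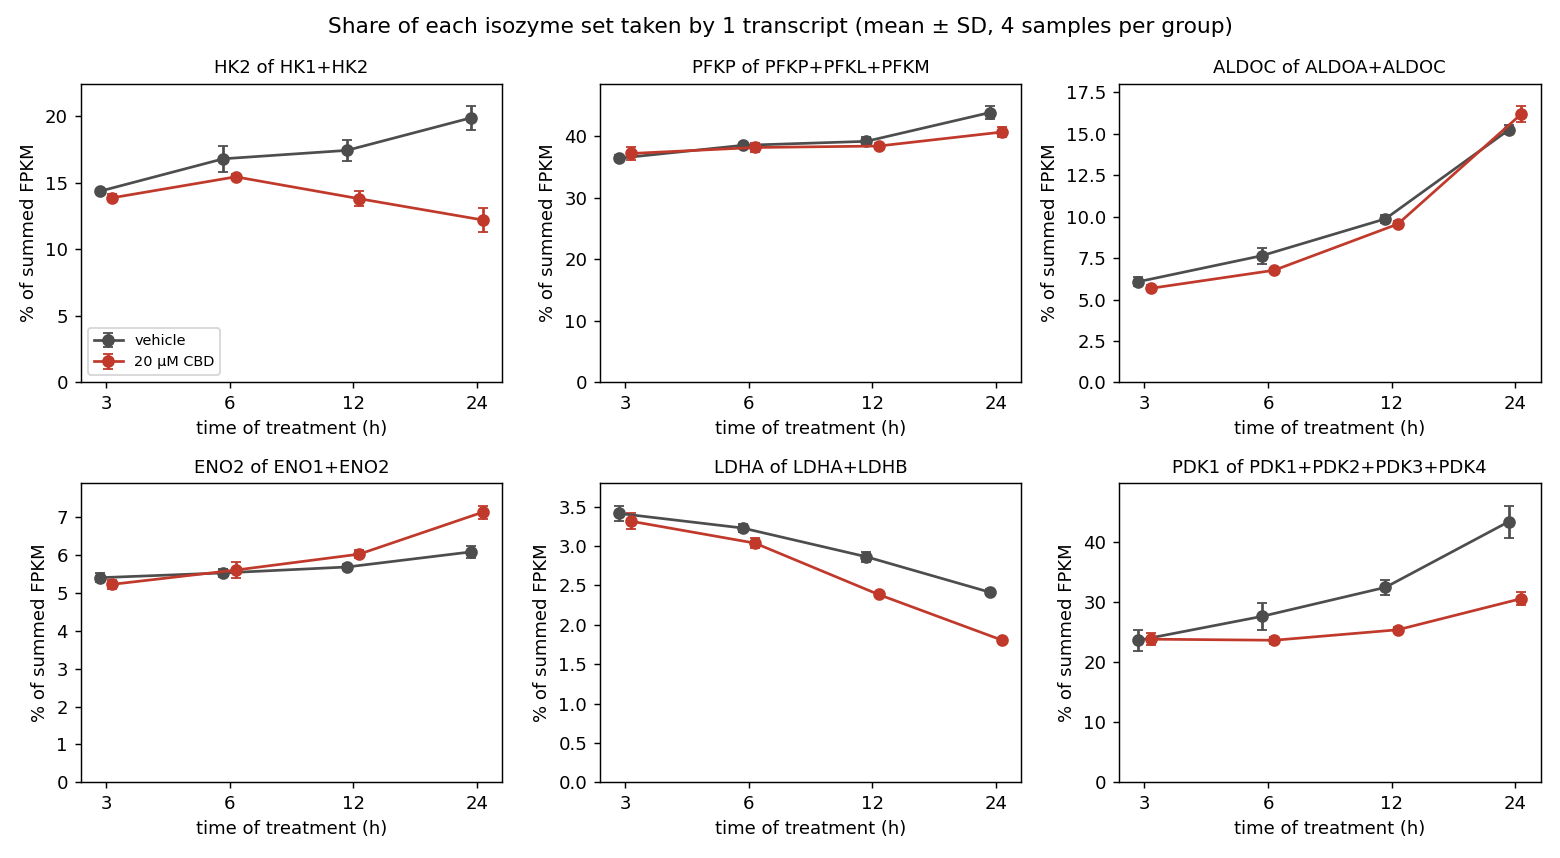
Share of each isozyme set (y axis, percent of summed FPKM, from 0) taken by HK2, PFKP, ALDOC, ENO2, LDHA and PDK1 against hours of treatment (x axis), as mean and SD of 4 samples for vehicle (grey) and CBD (red). At 24 h the CBD mean is below vehicle for HK2, PFKP, LDHA and PDK1 and above it for ALDOC and ENO2.

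The rest of the pathway was described from lists written with earlier results known. Of 22 other glycolytic enzymes 13 were tested, and 7 of these were lower and 3 higher at 24 h (median -0.19), where 21.3% of all genes were called lower and 20.8% higher. Those higher were PFKM, PKLR (0.32) and ENO3 (0.15), isozymes typical of liver and muscle that were named here after their values were seen. Of 8 tested glucose and lactate transporters 3 were lower and 3 higher. SLC16A3, the lactate exporter MCT4, was at 16.5 ± 1.97 FPKM in vehicle and 4.07 ± 0.823 FPKM in CBD at 24 h (-1.80 on the log2 scale, adjusted p = 4.81e-12), and SLC2A1, the glucose carrier GLUT1, at 28.2 ± 1.55 and 14.2 ± 0.882 FPKM (-0.94, adjusted p = 1.36e-13). SLC2A4, the insulin-regulated carrier GLUT4, was higher, at 1.81 ± 0.0645 FPKM in vehicle and 4.19 ± 0.148 FPKM in CBD (0.88, adjusted p = 4.62e-14). Both tested regulators of phosphofructokinase, which set the level of its activator fructose 2,6-bisphosphate, were lower: PFKFB4 at -0.70 and PFKFB3 at -0.46 (adjusted p = 2.52e-09 and 5.62e-12).

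Side branches were counted against the same shares of all genes at 24 h, 20.8% higher and 21.3% lower, and no difference from glycolysis was tested. Of 8 tested pentose phosphate genes 6 were higher and 0 lower by limma at 24 h, with TKT, a transketolase, at 0.32 and RPIA, a ribose phosphate isomerase, at 0.22 (adjusted p = 1.97e-09 and 4.15e-06). Of 20 citric acid cycle genes 5 were higher and 3 lower (median 0.043), led by IDH3A at 0.26, SUCLG2 at 0.25 and IDH3B at -0.21. Of 11 glycogen and gluconeogenesis genes 3 were higher and 3 lower, led by PCK2, the mitochondrial phosphoenolpyruvate carboxykinase, at 0.86, PYGL, a glycogen phosphorylase, at 0.63 and GBE1, the glycogen branching enzyme, at -0.49 (adjusted p = 1.43e-11, 6.42e-11 and 2.21e-12).

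Known regulators and other targets were looked up as well, against the same shares of all genes at 24 h, 20.8% higher and 21.3% lower. Among 8 tested HIF factors and oxygen sensors 6 were lower and 1 higher at 24 h, led by the prolyl hydroxylases EGLN3 at -0.52 and EGLN1 at -0.38, themselves HIF targets, and by ARNT2 at -0.20 (adjusted p = 7.50e-09, 3.84e-12 and 5.31e-06). Of 18 tested hypoxia-inducible markers 14 were lower at 24 h (median -0.57), with NDUFA4L2 at -2.14 and STC1, a secreted hormone, at -1.69. That list also holds SLC16A3, which was counted among the transporters above. Of 4 tested genes in a list of MYC-network factors and TXNIP, 1 was higher and 1 lower: MYCN went from 1554 ± 40.7 FPKM in vehicle to 2257 ± 130 FPKM in CBD at 24 h (0.54, adjusted p = 1.82e-12), and TXNIP, a brake on glucose uptake that is not a MYC-family protein, was at -0.84 (adjusted p = 1.94e-17). Of 13 neuroblastoma identity genes 7 were lower and 1 higher at 24 h, led by DBH at -1.496, CHGA at -0.93 and MYCN. Of 5 tested mesenchymal markers 2 were higher and 1 lower, SNAI2 (0.43), LUM (0.13) and DCN (-0.39), and the 1 tested keratinocyte marker was not called. Their part in the glycolytic differences was not tested.

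The transcripts closest in pattern were found by Pearson correlation of log2(FPKM + 1) over the 32 samples, which share treatment and time. For PDK1 these were SLC16A3 (0.98), the histone demethylase KDM3A (0.97) and TNIP1 (0.97). HK2 was closest to SYTL4 (0.95), RIMKLA (0.95) and IGF2 (0.94), and PGK1 to CLU (0.97), DBH (0.96) and ENO1 (0.94). ALDOC was closest to DKK3 (0.99), KLF10 (0.99) and KDM5B (0.98), and HK1 to DKK3 (0.96), PHLDB1 (0.95) and ANXA6 (0.95). GPI and ALDOA had DLK1 and ENO1 among their 3 closest (0.91 to 0.95), with DBH for GPI (0.93) and SYTL4 for ALDOA (0.92). PFKP was closest to COL6A1, PDZD7 and TSHR (0.97 each), and ENO2 to SHC1, MEG3 and JUP (0.95 to 0.96). LDHA stood apart, with UBR7, MCM4, a subunit of the replicative helicase, and HNRNPK as its closest (0.99 each). Among the 10 themselves the correlations ran from -0.84 to 0.96 with a median of 0.56.

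The order of the levels per length changed with time. In vehicle at 3 h it ran ALDOA, PGK1, GPI, HK1, ENO2, PFKP, LDHA, ALDOC, HK2 and PDK1, and among neighbours the samples of HK1 and ENO2 overlapped. In vehicle at 24 h ALDOC had moved from the eighth to the third place, behind ALDOA and PGK1. ENO2, GPI, PFKP and HK1 then followed without a gap between neighbours, and so did LDHA, PDK1 and HK2. In CBD at 24 h ALDOC, HK1, ENO2 and PFKP were not separated from their neighbours, and GPI, LDHA, PDK1 and HK2 followed in that order, each apart from the next. The sum of the 9 enzymes was 1089 ± 36.8 FPKM in vehicle and 844 ± 18.3 FPKM in CBD at 24 h.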

How the data were processed

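RNA-Seq was run on 32 samples of SK-N-BE(2) cells, in 8 groups of 4 by treatment and time as the labels give them. Per the submitters' processing notes, Trimmomatic 0.36 and TopHat2 2.2.1 were used, with hg19 as the genome, and the authors deposited 1 table of FPKM from Cufflinks, with no read counts, so intervals of depth could not be given.

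Values were used as log2(FPKM + 1), and the 12621 entries with a mean of at least 1 FPKM were tested with limma 3.58.1 (R 4.3.3): 8 group means in 1 fit of all samples, moderated variances with a trend, and Benjamini-Hochberg adjustment over all genes within each of 8 comparisons, with a threshold of 0.01. The fit was tested on simulated data. Isozyme shares were compared by exact permutation in Python 3.11.15.

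The 10 genes and the lists were chosen with earlier results of these data known. Named besides them were the enzymes and isozymes of steps they do not cover, up to 3 genes per list with the largest change among those called at 24 h, and the 3 genes closest in pattern to each. A gene that this rule names is not reported here. The alternatives were other added values, filters, scalings, variance models and thresholds, a depth term, a replicate block, single time points and leaving out each sample.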

Additional observations from a re-analysis of the deposited data

Results flagged for a closer look

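In 3 of 80 groups of 4 samples checked, 1 sample lay far from the other 3 by Dixon's criterion at the 95% level, and chance alone gives about 1 in 20. HK1 was at 58.3 FPKM in CBD 12 h replicate 4, below the others at 60.7 to 60.9 FPKM. ALDOC was at 61.8 FPKM in CBD 24 h replicate 1, below the others at 67.6 to 68.4 FPKM. LDHA was at 22.1 FPKM in CBD 12 h replicate 4, above the others, each at 21.3 FPKM.

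The effect of CBD differed between time points, by limma with adjustment over all genes. Between 3 h and 24 h it changed by -0.80 for HK2 (adjusted p = 2.38e-09), -0.32 for GPI (5.89e-06), -0.21 for PFKP (5.48e-04), -0.46 for ALDOA (8.04e-09) and -0.25 for ALDOC (0.00197) on the log2 scale. For PGK1 it changed by -0.59 (adjusted p = 3.51e-14), for ENO2 by -0.18 (0.00529), for LDHA by -0.40 (4.43e-09) and for PDK1 by -0.83 (1.09e-08). Between 12 h and 24 h it changed by -0.39 for HK2 (adjusted p = 4.20e-04), -0.24 for GPI (8.76e-04), -0.29 for ALDOA (5.04e-05), -0.38 for PGK1 (3.82e-09) and -0.36 for PDK1 (0.00344).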

How the results depend on the processing

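Of 172 recomputed counts of the 10 transcripts called, 169 stayed within 1.5 times the reported count. The 3 others were all at 6 h, where the reported count of 3 became 6 at a threshold of 0.05, 0 with that time point fitted alone by limma (6 with an unadjusted p under 0.05) and 1 without vehicle replicate 3. Leaving out single samples gave 0 to 0 called at 3 h, 1 to 3 at 6 h, 4 to 6 at 12 h and 9 to 9 at 24 h, 8 to 10 and 5 to 6 for the change of the effect from 3 h and from 12 h to 24 h, and 10 to 10 and 8 to 9 over time in vehicle and in CBD. Of 1060 recomputed values of the 49 single calls, 1028 kept the call, 32 lost it and 0 turned direction.

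Over all genes, the 310 called at 3 h became 190 with a depth term, 917 at 0.05, 29 with that time alone and 164 to 493 when samples were left out. The 1288 at 6 h became 2434 at 0.05 and 425 with that time alone, and the 1028 whose effect changed from 12 h to 24 h became 2056 at 0.05. Within a time point the replicate numbers showed no pairing of CBD with vehicle samples. Deviations of same-numbered samples correlated at -0.0757 to 0.0935, 0 of 16 pairs were over 0.1, and 5 of 16 correlated best with their own number. Same-numbered samples of different times were not compared. With a replicate block the counts over all genes were 447, 1570, 2806 and 5641 at 3, 6, 12 and 24 h. Without it they were lower, at 310, 1288, 2533 and 5314. Of the 10 transcripts 0, 3, 7 and 9 were called with the block at these times. For the changes of the effect 9 and 5 were called, and 10 and 9 over time in vehicle and in CBD. FPKM hide the read totals, so the depth behind each value is known only in relative terms.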
